A study of Mus musculus with 10 samples.

Results

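The 10 genes described here encode the NF-kappaB transcription factors of the mouse, 3 of their feedback genes and a pair of their inducers. The subunits are Nfkb1, Nfkb2, Rela, Relb and Rel, the feedback genes are Tnfaip3, Nfkbia and Nfkbiz, and the inducers are Tnf and Il1a. They were taken by name from a given list, and each was found under its symbol among the 21959 genes of the authors' expression table. RNA was sequenced from tumors of 4T1 cells, a line from a mouse mammary carcinoma that stands in for the triple-negative form of breast cancer, that had been injected under the abdominal skin of female BALB/c mice, which were 5 to 6 weeks old when obtained. All mice had an intact immune system and carried the same line. The 5 mice of the exercise group (E) could run at will for 21 days, and the 5 mice of the non-exercise group (NE) were kept without intervention. Each mouse gave 1 library (tumors E1 to E5 and NE1 to NE5), and although the study's text calls the tumors matched pairs, the labels do not say which mice were matched, so the groups were compared without pairing.

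NF-kappaB proteins are dimers of the subunits. In resting cells the canonical dimer of p50, made from Nfkb1, and p65, the product of Rela, is held in the cytoplasm by inhibitors, the best known of which is IkappaB-alpha, the product of Nfkbia. Tumor necrosis factor (Tnf) and interleukin 1 (Il1a, Il1b) activate IkappaB kinase, the inhibitor is degraded and the dimer enters the nucleus, where it binds kappaB sites in DNA. Nfkbia and Tnfaip3 (A20, a ubiquitin-editing enzyme) are themselves targets of the dimer and end the signal, while Nfkbiz (IkappaB-zeta) is an induced nuclear partner that is needed for a further set of targets. Nfkb2 (p100, cut to p52) and Relb serve the slower non-canonical pathway, and Rel (c-Rel) is found mainly in lymphoid and myeloid cells. In tumors, NF-kappaB is active in carcinoma cells as well as in macrophages, neutrophils and other host cells.

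Promoter sequences are shown for 4 members whose levels the results below turn on. Nfkbia and Rel hold a match to the kappaB consensus close to the start of transcription, and Tnf and Il1a hold no such match in the same window. They are the 250 bases before the start site in the RefSeq annotation of GRCm38.p6, written 5′ to 3′ on the strand of the gene (reverse for all 4), with a match to the kappaB consensus in capitals. The windows are chr12:55492648-55492897 for Nfkbia, chr11:23770970-23771219 for Rel, chr17:35202008-35202257 for Tnf and chr2:129309973-129310222 for Il1a.
Nfkbia: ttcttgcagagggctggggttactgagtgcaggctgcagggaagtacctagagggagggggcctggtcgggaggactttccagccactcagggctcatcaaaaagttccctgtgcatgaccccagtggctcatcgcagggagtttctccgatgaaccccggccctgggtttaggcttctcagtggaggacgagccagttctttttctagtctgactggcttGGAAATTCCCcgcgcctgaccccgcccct
Rel: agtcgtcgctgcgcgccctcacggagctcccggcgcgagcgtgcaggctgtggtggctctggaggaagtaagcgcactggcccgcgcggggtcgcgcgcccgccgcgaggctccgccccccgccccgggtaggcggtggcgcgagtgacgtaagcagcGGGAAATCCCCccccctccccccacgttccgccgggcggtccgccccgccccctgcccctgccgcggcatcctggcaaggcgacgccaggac
Tnf: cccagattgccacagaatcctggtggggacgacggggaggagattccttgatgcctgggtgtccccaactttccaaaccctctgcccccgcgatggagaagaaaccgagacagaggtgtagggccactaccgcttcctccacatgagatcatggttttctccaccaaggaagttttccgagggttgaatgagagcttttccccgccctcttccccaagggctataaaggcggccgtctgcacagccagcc
Il1a: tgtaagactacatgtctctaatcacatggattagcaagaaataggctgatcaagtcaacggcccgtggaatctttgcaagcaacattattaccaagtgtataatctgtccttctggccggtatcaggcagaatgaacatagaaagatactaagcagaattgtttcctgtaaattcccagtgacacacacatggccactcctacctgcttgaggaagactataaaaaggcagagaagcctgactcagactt
In Nfkbia the match covers bases 29 to 20 before the start, and it reads as the consensus on the strand opposite to the gene. In Rel, 3 overlapping matches on both strands, counted separately, cover bases 92 to 82 before the start. RefSeq promoter windows of 300 bases (250 before and 50 after a start) were at hand for 7 of the 10 members, namely these 4, Tnfaip3, Nfkb2 and Rela, with 10 windows in all. A match was held by 6 of the 10 windows, from 4 members (Nfkbia, Rel, Tnfaip3 and Nfkb2), against 8.49% of the 32544 distinct windows of all genes. With the looser pattern of GGG, any 5 bases and CC, it was 9 of the 10 windows, from 6 members, against 51.0% of all windows. Tnf was among these 6 members, and Il1a was not. The windows of a gene can overlap. A match is a stretch of letters only, and binding was not measured.

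The table gives a read count and an FPKM (the count per exon length and library total) for each gene. Between 15045613 and 20646763 reads were counted per tumor in E and between 18706032 and 23092251 in NE, and E5 was the shallowest library. In the check of the tissue, defining markers of mammary carcinoma epithelium were at or near 0: the mean FPKM in E and NE was 0.391 and 0.769 for Epcam and 0.169 and 0.283 for Krt8, Cldn3 was at 0 in 7 tumors and Cldn4 in 6, and only Krt19 (6.23 and 9.60) and Cdh1 (2.60 and 2.28) were above 1 FPKM in every tumor. Markers of macrophages or monocytes summed to 625 to 2400 CPM (counts scaled to the library total), those of T cells to 68.5 to 184 and those of B cells to 9.15 to 22.01. E5, NE1 and NE4 stood apart in such markers. In E5, the 10 neutrophil markers summed to 289 CPM, against 12.02 to 57.3 in the other tumors, and the 10 fibroblast markers to 16240 CPM, against 1048 to 5484. The macrophage or monocyte sum was also highest in E5 (2400 CPM, against 625 to 2103). NE1 had the lowest sums for macrophages or monocytes (625 CPM), T cells (68.5) and fibroblasts (1048). In NE4, skeletal muscle markers summed to 30354 CPM, against 6.16 to 4235 elsewhere.

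By FPKM, which allows levels of different genes to be compared per length, the members fell into a fixed order that was nearly the same in every tumor. Nfkbia was highest, with a mean of 51.6 FPKM over the 10 tumors, followed by Nfkb2 (28.2), Rela (25.4), Nfkb1 (17.9), Nfkbiz (12.4), Tnfaip3 (9.85), Relb (7.38), Tnf (5.29), Rel (3.77) and Il1a (0.858). The ranges over the tumors were apart only between Nfkbia (41.5 to 81.1) and Nfkb2 (23.8 to 31.6) and between Rela (23.1 to 27.8) and Nfkb1 (15.8 to 19.4). For the other neighbors the ranges overlapped. Within a tumor, the upper gene of a neighboring pair was still the higher one in 10 of 10 tumors for Nfkb1 over Nfkbiz, Relb over Tnf and Rel over Il1a, and in 9 of 10 for Nfkb2 over Rela, Nfkbiz over Tnfaip3, Tnfaip3 over Relb and Tnf over Rel. The transcripts of the canonical and non-canonical subunits Nfkb1, Nfkb2 and Rela were thus 4.74 to 7.49 times as abundant per length as those of Rel.

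**Figure D1:**
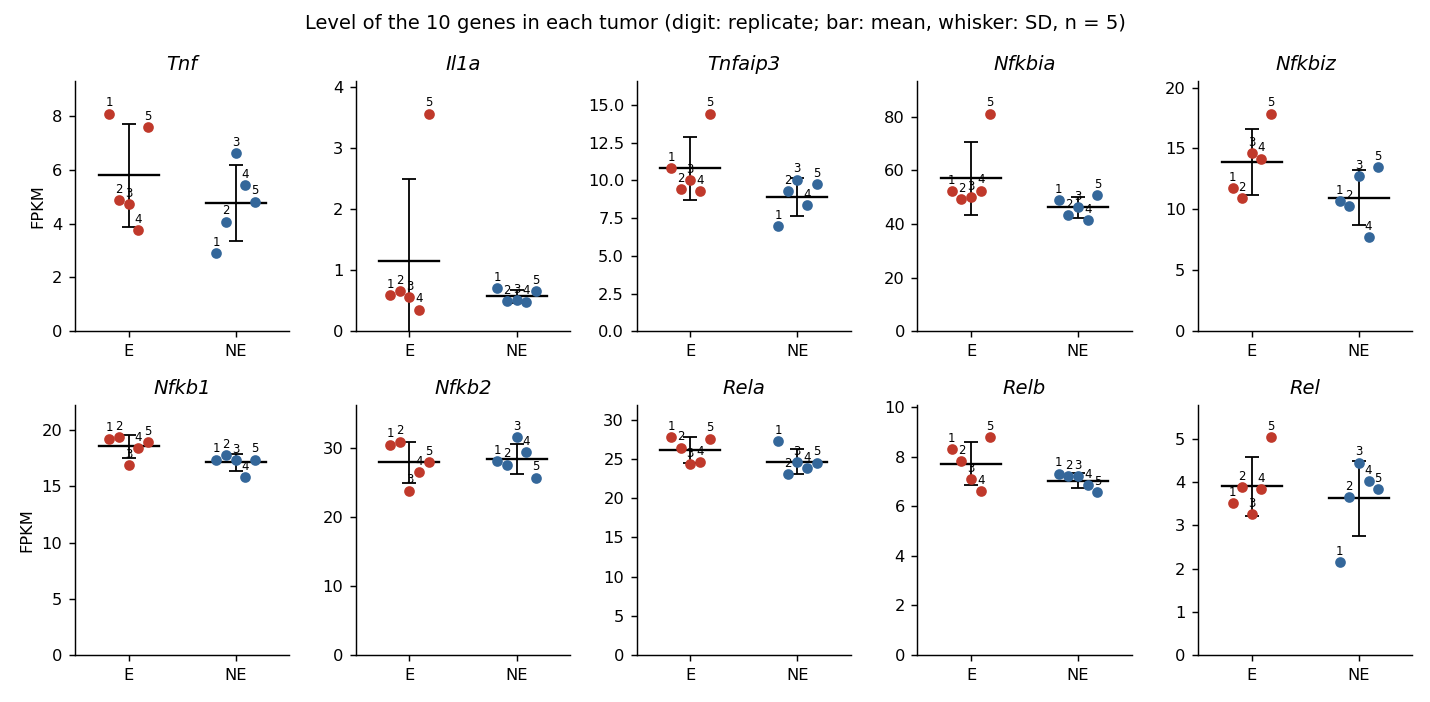
FPKM of each of the 10 genes (vertical axes, each starting at 0) in the E tumors (red) and NE tumors (blue), with the replicate number above each point, the group mean as a horizontal bar and the SD as a whisker (n = 5 per group). Replicate 5 of E is the highest point for Il1a, Tnfaip3, Nfkbia, Nfkbiz, Relb and Rel, and the groups overlap for all 10 genes.

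The first comparison asked whether the members differed between tumors of running mice and tumors of mice without intervention. No member passed the threshold (a fold of 2 or more and an FDR up to 0.05), nor did any of the 13517 genes tested (0%, edgeR's quasi-likelihood test, Benjamini-Hochberg over all of them). With an unadjusted p up to 0.05 there were 0 of 10 members, against 657 genes or 4.86% of all, and DESeq2, which gave 3 genes with an FDR up to 0.05 and a fold under 2, had no member among them. The FDR of the members was 0.897 to 0.963. Of the 10 log2 fold changes (E minus NE), 9 were above 0, against 46% of all genes tested, and their median was 0.17, against -0.014 over all genes. Without E5, 7 of 10 were above 0, against 45.4% of all genes, and the median of the members was 0.069. It was 0.11 without E1, 0.12 without NE1 and 0.18 without NE4. With the log2 total count as a covariate, 7 of 10 members had a log2 fold change above 0, against 44.4% of all genes. No member had groups that did not overlap in FPKM, which 0.695% of the genes tested had. In bulk tumor RNA, fewer cells of a type and less RNA per cell cannot be told apart. With 5 tumors against 5, the exact permutation tests used below for single genes cannot go under p = 0.00794, and their p-values were not adjusted for the 10 members.

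**Figure D2:**
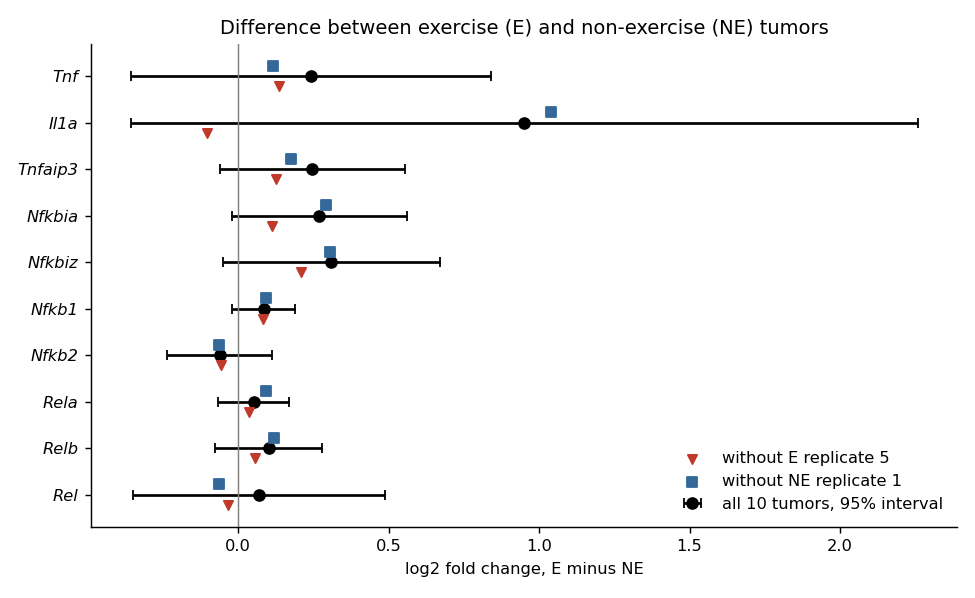
Log2 fold change between E and NE (horizontal axis, edgeR) for each gene, with its 95% interval from all 10 tumors (black), and the same without E replicate 5 (red triangles) and without NE replicate 1 (blue squares). All intervals include 0, and those of Rela and Nfkb1 are the narrowest (-0.065 to 0.17 and -0.020 to 0.19).

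Among the inducers, Tnf (ENSMUSG00000024401, chromosome 17) encodes the cytokine made above all by macrophages and T cells. Its FPKM was 8.10, 4.88, 4.74, 3.75 and 7.58 in E1 to E5 and 2.91, 4.08, 6.63, 5.45 and 4.82 in NE1 to NE5, from 110 to 274 reads per tumor. E1 and E5 were the highest and NE1 the lowest, while E4 lay below 4 of the 5 NE tumors. NE1 also had the lowest sums of macrophage or monocyte, T cell, fibroblast and skeletal muscle markers. The E tumors had a mean of 5.81 ± 1.91 and the NE tumors one of 4.78 ± 1.40 (SD, n = 5), the log2 fold change was 0.24 (SE 0.27, 95% interval -0.36 to 0.84), and log2(FPKM + 1) did not differ by the exact permutation test (two-sided, p = 0.365). Each group scattered more (SD) than the means were apart. Without NE1 the log2 fold change was 0.11 and without E5 it was 0.13.

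Il1a (ENSMUSG00000027399, chromosome 2) encodes interleukin 1 alpha, which is released by damaged cells and made by activated myeloid and epithelial cells. The levels in E1 to E5 were 0.589, 0.652, 0.565, 0.355 and 3.57 FPKM, and those in NE1 to NE5 were 0.702, 0.487, 0.513, 0.486 and 0.663 FPKM. A single tumor, E5, with 106 reads, was 5.08 times as high as the next tumor, while the other 9 tumors (13 to 32 reads) formed a band in which the groups were mixed. The mean of 1.146 ± 1.36 in E was 2.01 times that of 0.570 ± 0.104 in NE (SD, n = 5), but the 95% interval of the log2 fold change (0.95, SE 0.59) ran from -0.36 to 2.26 (exact permutation test, p = 0.651). Without E5 the E mean was 0.540 ± 0.129 (n = 4), and the log2 fold change became -0.10.

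The feedback genes had the largest log2 fold changes after Il1a (0.25 to 0.31), and none passed the test. Nfkbia (ENSMUSG00000021025, chromosome 12) was measured at 52.1, 49.2, 49.99, 52.4 and 81.1 FPKM in E1 to E5 and at 48.9, 43.4, 46.3, 41.5 and 50.8 FPKM in NE1 to NE5. All 5 E tumors lay above 4 of the 5 NE tumors and only NE5 exceeded E2 and E3, so that E was higher in 23 of the 25 pairings of an E with an NE tumor. E had a mean of 57.0 ± 13.6 and NE one of 46.2 ± 3.82 (SD, n = 5), with a log2 fold change of 0.27 (SE 0.13, 95% interval -0.021 to 0.56, unadjusted p = 0.0657 and FDR = 0.897 by edgeR). By the exact permutation test the unadjusted p was 0.0317. It was 0.0635 without NE1, 0.0873 without NE3 and 0.103 without NE2 or NE4. E5 set much of the size and of the SD: without it the E mean was 50.9 ± 1.57 (n = 4), the log2 fold change was 0.11 and the exact permutation p was 0.0635. With same-numbered tumors as a block, edgeR gave Nfkbia a log2 fold change of 0.25 (unadjusted p = 0.0274, FDR = 0.871).

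Tnfaip3 (ENSMUSG00000019850, chromosome 10) was at 10.8, 9.44, 10.04, 9.30 and 14.4 FPKM in E1 to E5 and at 6.96, 9.27, 10.1, 8.38 and 9.78 in NE1 to NE5. E5 was again highest and NE1 lowest, and the 4 other E tumors lay within 1.502 FPKM of each other, with E1 above all NE tumors and the other 3 among the upper NE tumors. The means were 10.8 ± 2.11 and 8.89 ± 1.25 (SD, n = 5), the log2 fold change was 0.25 (SE 0.14, 95% interval -0.060 to 0.55) and the exact permutation test gave p = 0.0952. Nfkbiz (ENSMUSG00000035356, chromosome 16) showed the widest spread of the 3, with 11.8, 10.96, 14.6, 14.2 and 17.9 FPKM in E1 to E5 and 10.7, 10.2, 12.7, 7.74 and 13.5 in NE1 to NE5. Here E3 and E4 joined E5 above all NE tumors, E1 and E2 lay within the NE range, and NE4 was the lowest. The log2 fold change was 0.31 (SE 0.16, 95% interval -0.050 to 0.67), from means of 13.9 ± 2.71 and 10.97 ± 2.25 (SD, n = 5), with an exact permutation p of 0.103. Without E5 the log2 fold changes were 0.13 for Tnfaip3 and 0.21 for Nfkbiz, and without NE4 that of Nfkbiz was 0.22. With the replicate block, edgeR gave Nfkbiz 0.31 (unadjusted p = 0.0289, FDR = 0.871). With sequencing depth (log2 total count) as a covariate the log2 fold changes were 0.046 for Tnfaip3, 0.15 for Nfkbiz and 0.032 for Nfkbia. E5 is the shallowest library. It also had the highest sums of neutrophil, fibroblast, macrophage or monocyte, dendritic cell, B cell and endothelial markers. By single markers, E5 was highest for 6 of the 10 neutrophil, 9 of the 10 fibroblast and 6 of the 10 macrophage or monocyte markers. It was highest for only 2 of the 9 dendritic cell, 2 of the 5 tested B cell and 4 of the 10 endothelial markers. The part of depth and of these cells in the feedback genes was not tested.

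The subunits lay closer together. Nfkb1 (ENSMUSG00000028163, chromosome 3) was at 19.3, 19.4, 16.9, 18.4 and 18.9 FPKM in E1 to E5 and at 17.4, 17.8, 17.3, 15.8 and 17.4 in NE1 to NE5. Apart from E3, the second lowest tumor of all, the E tumors lay above every NE tumor. The means of 18.6 ± 1.01 and 17.1 ± 0.766 (SD, n = 5) were 1.08 times apart, and the exact permutation test of the FPKM gave an unadjusted p of 0.0397. It was 0.0873 without NE4 and 0.0952 without E1, E2, E4 or E5. By edgeR, which scales by TMM, the log2 fold change was 0.085 (SE 0.047, 95% interval -0.020 to 0.19, unadjusted p = 0.101), that is, a fold between 0.986 and 1.14. Rela (ENSMUSG00000024927, chromosome 19) was at 27.8, 26.5, 24.3, 24.6 and 27.6 FPKM in E1 to E5 and at 27.3, 23.1, 24.6, 23.8 and 24.5 in NE1 to NE5. E1, E5 and NE1 formed the upper end, followed by E2, and the other tumors of both groups were mixed. Its fold between E and NE had a 95% interval of 0.956 to 1.13, from means of 26.2 ± 1.63 and 24.7 ± 1.61 (SD, n = 5), and the exact permutation p was 0.159.

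Nfkb2 (ENSMUSG00000025225, chromosome 19) was the only member with a log2 fold change below 0 (-0.061, SE 0.079, 95% interval -0.24 to 0.11). The 5 E tumors had 30.5, 30.9, 23.8, 26.5 and 27.95 FPKM and the 5 NE tumors had 28.1, 27.6, 31.6, 29.4 and 25.7 FPKM. The lowest tumor was E3 and the highest NE3, and the groups were mixed between them (means 27.96 ± 2.94 and 28.5 ± 2.17, SD, n = 5, exact permutation p = 0.730). Relb (ENSMUSG00000002983, chromosome 7), the partner of p52, was at 8.30, 7.81, 7.08, 6.62 and 8.78 FPKM in E1 to E5 and at 7.31, 7.22, 7.20, 6.86 and 6.56 in NE1 to NE5. E1, E2 and E5 exceeded all NE tumors while E3 and E4 lay within them, and the E tumors were the more scattered (7.72 ± 0.878 against 7.03 ± 0.315, SD, n = 5; log2 fold change 0.10, SE 0.080, exact permutation p = 0.167). Leaving out a tumor gave Relb an exact permutation p of 0.0476 without E4 and of 0.111 to 0.333 otherwise, and without E5 its log2 fold change was 0.056.

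Rel (ENSMUSG00000020275, chromosome 11) was unlike the other subunits in its scatter. Its FPKM was 3.52, 3.89, 3.26, 3.85 and 5.04 in E1 to E5 and 2.16, 3.66, 4.46, 4.02 and 3.84 in NE1 to NE5. E5 was the highest and NE1 the lowest, and the 8 tumors between them were mixed. The log2 fold change was 0.070 (SE 0.19, 95% interval -0.35 to 0.49, FDR = 0.963 by edgeR; exact permutation p = 0.619), and its sign depended on single tumors, with -0.033 without E5 and -0.063 without NE1.

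The members differed in how much they varied over the tumors, whatever the group. The SD of log2(CPM + 1) over the 10 tumors was 0.066 for Nfkb1 and 0.075 for Rela, and only 2.60% and 4.63% of the 13517 genes tested had a smaller one. Relb (0.12) and Nfkb2 (0.12) followed, with 23.1% and 26.6% of genes below them, against a median SD of 0.18 over all genes. The feedback genes had an SD of 0.26 (Tnfaip3), 0.24 (Nfkbia) and 0.31 (Nfkbiz), and 67.7% to 77.6% of genes varied less. Rel (0.32), Tnf (0.41) and Il1a (0.62) were more variable than 78.1%, 85.9% and 93.9% of genes. Counting error falls with the read number, which was 3437 to 4845 for Nfkb1 and 13 to 106 for Il1a, so that the SD of low genes holds more of it, and its share in these SDs was not tested.

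E5 was the highest of the 10 tumors for 6 members, namely Il1a, Tnfaip3, Nfkbia, Nfkbiz, Relb and Rel, and the second highest for Tnf and Rela. Of all genes tested, 11.9% were highest in E5. Relative to the mean of the other 9 tumors, E5 had 6.41 times the Il1a, 1.68 times the Nfkbia, 1.55 times the Tnfaip3, 1.51 times the Nfkbiz, 1.51 times the Tnf and 1.39 times the Rel. For Relb the ratio was 1.22, for Rela 1.10, for Nfkb1 1.07 and for Nfkb2 0.989, so that the RNA of the main subunits was near the level of the other tumors in the tumor in which the inducers and feedback genes were high. The neutrophil markers S100a9 and S100a8 were at 189 and 101 FPKM in E5, against at most 9.27 and 6.28 in the NE tumors. The other E tumors were not high in such markers. Summed over the neutrophil list, E1 to E4 had 14.4 to 32.6 CPM, within the NE range of 12.02 to 57.3, against 289 in E5. Of the 10 neutrophil markers, 6 were highest in E5, while Ly6g (0.282 FPKM in E5), Ngp (0.163), Camp (0) and Ltf (0.308) were not. E5 was also highest for 6 of the 10 macrophage or monocyte markers and 9 of the 10 fibroblast markers. The part of these cells in the level of the members was not tested. NE1 was the lowest tumor for Tnf, Tnfaip3 and Rel (20.8% of all genes tested were lowest there), and it also had the lowest level of 9 of the 10 macrophage or monocyte markers and of all 9 T cell markers in the table. The same held for 9 of the 10 fibroblast markers, 8 of the 9 dendritic cell markers and all 11 tested skeletal muscle markers. It held for 0 of the 10 endothelial markers. Rel was at 0.0789 times the Rela level in NE1 and at 0.127 to 0.183 times in the other 9 tumors. Rela, the denominator, was at 27.3 FPKM in NE1, near the upper end of its range (23.1 to 27.8). The part of any cell type in the low Rel of NE1 was not tested. NE4 was lowest for Nfkbia, Nfkbiz and Nfkb1, and 22.1% of all genes were lowest in NE4, the tumor with the high skeletal muscle markers.

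**Figure D3:**
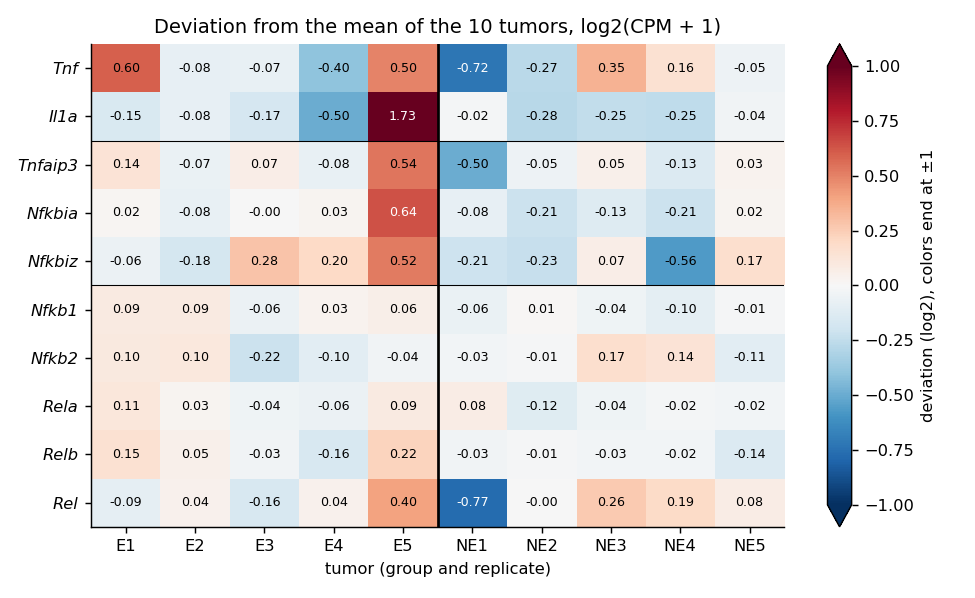
Deviation of each gene from its mean over the 10 tumors on the scale of log2(CPM + 1), with E tumors left and NE tumors right of the black line, and inducers, feedback genes and subunits from top to bottom. E replicate 5 is at 0.50 to 1.73 for both inducers and all 3 feedback genes, and NE replicate 1 is at -0.77 for Rel and -0.72 for Tnf.

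Ratios between members within a tumor, which do not depend on library scaling, gave the balance of the subunits. Nfkb2 over Nfkb1 had a mean of 1.501 ± 0.085 for E and 1.67 ± 0.167 for NE (SD, n = 5), with overlapping ranges of 1.41 to 1.597 and 1.48 to 1.86. The ratio of Relb to Rela was 0.294 ± 0.018 in E and 0.286 ± 0.019 in NE, and that of Rel to Rela was 0.149 in both groups. For the inhibitor over the subunit it binds, Nfkbia over Rela was 1.86, 1.88, 2.06 and 2.13 in E2, E1, E3 and E4, 2.94 in E5 and 1.75 to 2.07 in NE. Leaving E5 aside, the groups overlapped in the amount of inhibitor RNA per Rela RNA.

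Across the 10 tumors, 40 of the 45 pairs of members had a Pearson's r of log2(CPM + 1) above 0, against 49.7% of all pairs of genes tested. An r of at least 0.8 was seen in 1 pair (2.22%, against 2.12% of all pairs), and no pair passed an adjusted p of 0.05 (100000 permutations, Benjamini-Hochberg over the 45 pairs). Tnf and Tnfaip3 had r = 0.79 (permutation p = 0.00618, adjusted 0.139) and a Spearman's rho of 0.745 (permutation p = 0.0183, adjusted 0.274), and r was 0.68 without the 2 tumors farthest from the median of Tnf. Nfkbia and Nfkbiz had r = 0.78 (permutation p = 0.00408, adjusted 0.139) and rho = 0.842 (permutation p = 0.00393, adjusted 0.177), with r = 0.66 without the 2 farthest tumors. The largest r, 0.91 for Il1a and Nfkbia (permutation p = 0.0392, adjusted 0.176), went with a rho of 0.394 (permutation p = 0.266, adjusted 0.703), was 0.67 without the 2 farthest tumors and was 0.094 without E5 alone. Rel and Tnfaip3 had r = 0.77 (permutation p = 0.0270, adjusted 0.176) and rho = 0.261 (permutation p = 0.470, adjusted 0.755), and r was -0.40 once E5 and NE1 were left out, so that it rested on those tumors. The most negative r was that of Nfkbiz and Nfkb2 (-0.58, permutation p = 0.0817, adjusted 0.306), with a rho of -0.636 (permutation p = 0.0554, adjusted 0.416) and an r of -0.56 without the 2 farthest tumors. Rela and Nfkb1, the partners of the canonical dimer, had r = 0.36 (permutation p = 0.295, adjusted 0.511) and rho = 0.297 (permutation p = 0.405, adjusted 0.755), with r = 0.15 without the 2 farthest tumors. Without E5, 30 of the 45 pairs were above 0. With values centred within E and within NE, 37 were, and the 3 leading pairs kept r of 0.94 (Il1a and Nfkbia), 0.78 (Tnf and Tnfaip3) and 0.70 (Nfkbia and Nfkbiz).

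**Figure D4:**
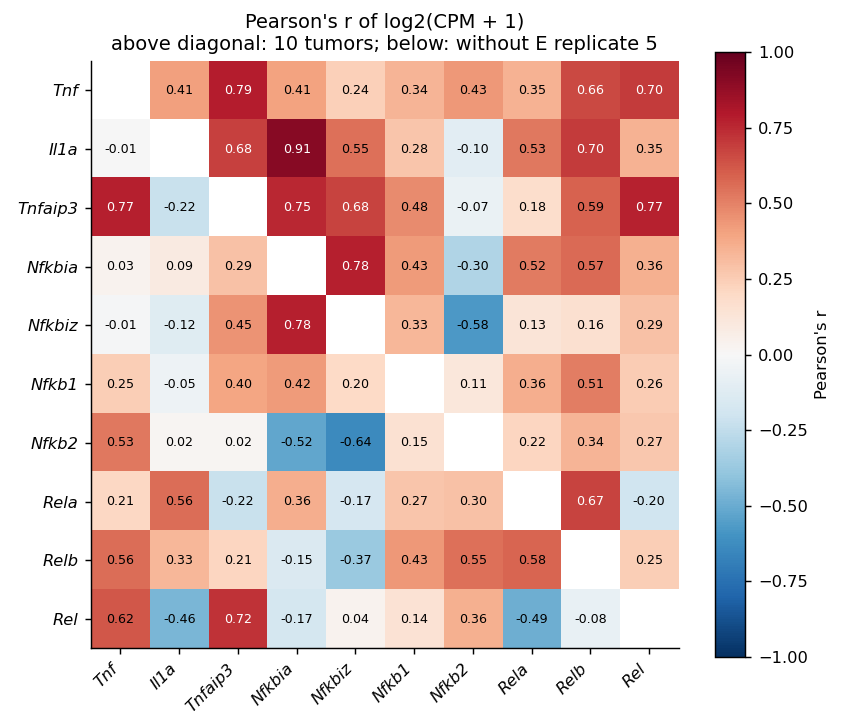
Pearson's r between members over the tumors, from all 10 tumors above the diagonal and without E replicate 5 below it. The block of high r between Il1a and the feedback genes above the diagonal (0.91 with Nfkbia) is near 0 or negative below it, whereas Tnf with Tnfaip3 (0.77) and Nfkbia with Nfkbiz (0.78) are as high below it.

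Other genes of the pathway were taken from lists by role, which were chosen with earlier results of these data known. Their shares beside those of all genes are a description without a test. Of 16 tested ligands and receptors, 1 was higher in E with an unadjusted p up to 0.05 and 0 lower, against 2.57% and 2.29% of all genes tested, and the median log2 fold change was 0.17. That gene was Il1rn, the interleukin 1 receptor antagonist (log2 fold change 0.63, SE 0.28, unadjusted p = 0.0452, FDR = 0.897 by edgeR). It was at 17.9, 16.1, 14.8, 17.6 and 42.3 FPKM in E1 to E5 and at 13.9, 13.9, 13.8, 10.1 and 16.9 in NE1 to NE5. E was higher in 23 of 25 pairings, and without E5 its log2 fold change was 0.25 (unadjusted p = 0.0698). Il1b, the other ligand of the Il1a receptor, was at 34.2, 20.6, 17.6, 23.9 and 82.5 FPKM in E1 to E5 and at 11.4, 18.5, 29.7, 17.2 and 14.8 in NE1 to NE5 (log2 fold change 0.93, unadjusted p = 0.0547). Without E5 the log2 fold change of Il1b was 0.36 (unadjusted p = 0.223). Like Il1a it peaked in E5, but at a level 23.1 times as high. The receptors Tnfrsf1a, the highest gene of the list at a mean of 53.3 FPKM, and Ltbr, which leads to the non-canonical pathway, had log2 fold changes of 0.056 (unadjusted p = 0.507) and 0.15 (unadjusted p = 0.0641).

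The 26 adaptors, ubiquitin ligases and kinases that carry the receptor signal had a median log2 fold change of 0.017 (range -0.089 to 0.19). Of them, 0 had an unadjusted p up to 0.05, against 4.86% of all genes tested. The genes with the smallest p were Traf1 (log2 fold change 0.19, unadjusted p = 0.0907), Traf6 (0.17, unadjusted p = 0.0914) and Tab1 (0.19, unadjusted p = 0.133), and the highest gene was Tab2 (30.4 FPKM, 0.015). E5 was the highest tumor for 3 of these 26 genes (11.5%), close to the 11.9% of all genes, and for 7 of the 16 ligands and receptors (43.8%). Of 16 other inhibitors and feedback genes, 2 were higher (12.5%, against 2.57% of all genes) and 0 lower (against 2.29%) with an unadjusted p up to 0.05. They were Tnip1, which encodes a binding partner of A20, and Zc3h12a, the RNase regnase-1 that degrades cytokine mRNA. Tnip1 was at 33.8, 34.7, 31.3, 33.5 and 34.2 FPKM in E1 to E5 and at 33.6, 30.0, 27.4, 26.5 and 29.8 in NE1 to NE5 (log2 fold change 0.15, unadjusted p = 0.0185, FDR = 0.897). Only NE1 reached into the E range, and leaving out E5 gave 0.15 as well (unadjusted p = 0.0357). Zc3h12a had a log2 fold change of 0.33 (unadjusted p = 0.0331) and 0.22 without E5 (unadjusted p = 0.0833). Without E5, Tnip1 was thus the only gene of the list left (6.25%, against 1.51% of all genes). Zfp36, whose product destabilizes the mRNA of Tnf, had 0.39 (unadjusted p = 0.0550) and 0.25 without E5 (unadjusted p = 0.152).

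Of 23 tested target genes, 5 were higher in E with an unadjusted p up to 0.05 (21.7%, against 2.57% of all genes) and 0 were lower, with a median log2 fold change of 0.21. Without E5 there were 4 (Sele, Ccl2, Junb and Plau; 17.4%, against 206 of 13614 genes or 1.51%), and the median was -0.036. Both shares only describe a list that was chosen with earlier results of these data known. Markers of other cells were counted in the same way, against 2.57% of all genes higher and 2.29% lower in E. Of 6 tested neutrophil markers, 2 were higher with an unadjusted p up to 0.05 (S100a9 and S100a8, log2 fold changes 2.96 and 2.77). The median of the neutrophil markers was 1.57 in all tumors and -0.18 without E5. Of 10 macrophage or monocyte markers, 1 was higher (Cd14, 0.80). Of 5 tested epithelial markers, 2 were lower (Krt19, -0.65, and Epcam, -1.01). Elf3 had -0.32, while Cldn7 (0.083) and Cdh1 (0.16) lay above 0. The part of these cells in the target genes was not tested. The chemokine gene Cxcl2 had the largest log2 fold change (3.21, SE 1.08, unadjusted p = 0.0133, FDR = 0.897 by edgeR). It was at 3.61, 2.28, 1.95, 3.52 and 69.6 FPKM in E1 to E5 and at 2.18, 2.22, 1.23, 0.674 and 2.22 in NE1 to NE5. As for Il1a, E5 made most of the difference, and without it the log2 fold change was 0.71 (unadjusted p = 0.0749). Junb, which encodes an AP-1 subunit, was at 56.8, 49.5, 54.3, 57.5 and 56.2 FPKM in E1 to E5 and at 51.7, 42.1, 46.0, 39.7 and 46.7 in NE1 to NE5 (log2 fold change 0.25, SE 0.067, unadjusted p = 0.00370). E was higher in 24 of 25 pairings, and the log2 fold change was 0.24 without E5. Plau, the urokinase gene, had a log2 fold change of 0.32 (unadjusted p = 0.0234; 0.31 without E5). Sele and Mmp9, named because they complete the count of 5, had 0.62 (unadjusted p = 0.0248) and 1.25 (unadjusted p = 0.0302), and without E5 they had 0.68 (unadjusted p = 0.0250) and 1.12 (unadjusted p = 0.0650). Ccl2, the highest target at a mean of 131 FPKM, had 0.24 (unadjusted p = 0.0774), or 0.32 (unadjusted p = 0.0131) without E5, and was lowest of the E tumors in E5 (111 FPKM), the tumor in which Cxcl2 was highest. No gene of these lists had an FDR under 0.897.

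**Figure D5:**
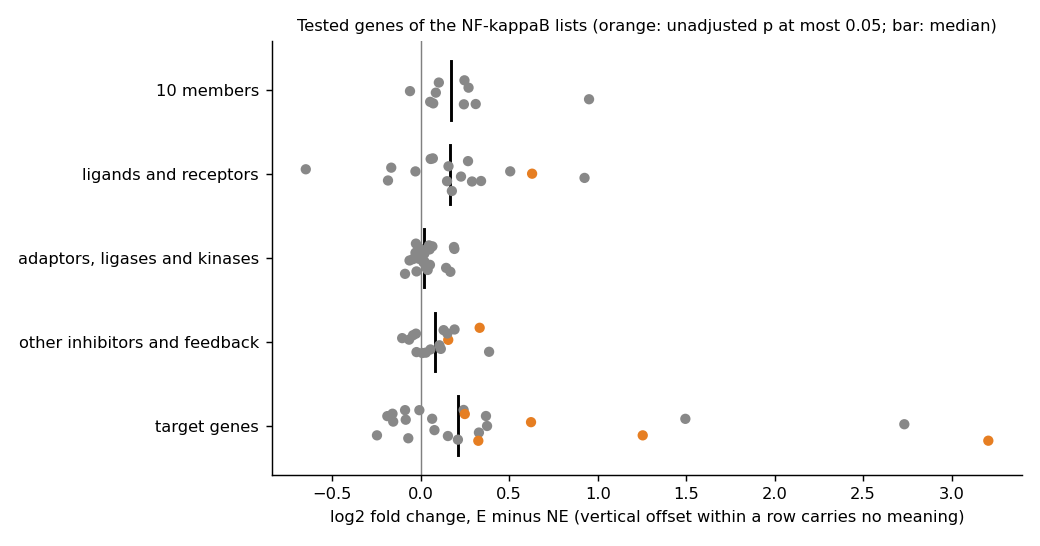
Log2 fold change between E and NE (horizontal axis, edgeR) of the 10 members and of the tested genes of the 4 NF-kappaB lists, each point a gene, orange with an unadjusted p up to 0.05, with the median of each list as a black bar. The 26 adaptors, ligases and kinases lie between -0.089 and 0.19, while the target genes reach 3.21 (Cxcl2).

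For each member, the gene with the most similar pattern was searched among 11302 other tested genes with a mean FPKM of at least 1, by Pearson's r of log2(CPM + 1) over the 10 tumors. As the highest of so many, these r are a description without a test. Nfkbia was most like Il1rn (r = 0.98, rho = 0.903), Rel most like Wdfy4 (r = 0.98, rho = 0.952) and Tnf most like Erp29 (r = 0.96, rho = 0.976). Tnfaip3 was paired with Ctsa (r = 0.95, rho = 0.745), Nfkbiz with Chd2 (r = 0.92, rho = 0.867) and Il1a with Dbndd1 (r = 0.94, rho = 0.588). Among the other subunits, Rela was paired with Nkiras2 (r = 0.95, rho = 0.988), which is known as an inhibitor of NF-kappaB by binding to IkappaB proteins, Nfkb1 with E2f8 (r = 0.93, rho = 0.988), Nfkb2 with Aen (r = 0.94, rho = 0.855) and Relb with Psd4 (r = 0.92, rho = 0.842).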

How the data were processed

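RNA of 10 tumors (5 E, 5 NE, 1 mouse each) was measured by paired-end mRNA sequencing. The study's methods state Hisat2 (2.0) for the alignment and Stringtie (1.3.0) for FPKM. They name a rat assembly, while the table carries mouse gene identifiers and names no build. The authors deposited whole-number read counts per gene, not normalized, and how they were obtained from Stringtie is not given in the sources used here. The deposited FPKM equal count over gene length and total count (largest relative deviation 3.77e-14) and so hold no TMM factor. The strand setting of the counting is not stated, so overlapping antisense reads cannot be told apart.

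The sample labels gave the groups and the replicate numbers. From the counts, edgeR 4.0.16 in R 4.3.3 (TMM, filterByExpr by group, glmQLFit, glmQLFTest) tested 13517 genes with Benjamini-Hochberg adjustment over all of them. A log2 fold change above 0 means higher in E. Single genes were also tested with exact two-sided permutation tests of log2(FPKM + 1) over the 252 assignments, and pairs of members with 100000 permutations (scipy 1.17.1, Python 3.11.15). CPM include the TMM factor. Alternatives were DESeq2 1.42.0, limma-voom and limma-trend (limma 3.58.1), the exact test of edgeR, library size without TMM, other filters on low counts, pseudocounts and thresholds, the replicate number as a block, 2 covariates and leaving out each tumor. On simulated counts for E against NE (13517 genes, 200 changed by a log2 fold change of 1.2), edgeR recovered 137 (68.5%) with 6 false calls. The counts were drawn gene by gene, without tumors that deviate in many genes at once. All members had a smaller log2 fold change than 1.2, so this recovery does not hold for differences of their size. No pair of libraries was alike within sampling noise (chi-square over degrees of freedom of at least 8.51 in 45 pairs). The labels give no batch.

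The members, the lists of other NF-kappaB genes and of markers, and the tests were chosen with earlier results of these data known. From each NF-kappaB list, the 3 genes with the smallest unadjusted p and the gene with the highest mean FPKM are named, and from each marker list the gene with the highest mean FPKM. Promoters were RefSeq windows (GRCm38.p6), searched on both strands for the kappaB consensus. Windows for Nfkbiz, Nfkb1 and Relb were not used here. Those of Tnfaip3, Nfkb2 and Rela are not printed because another annotated start of the gene lies 58 to 3694 bases before theirs. For the printed windows this distance was 1 base for Rel and 0 for Nfkbia, Tnf and Il1a.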

Additional observations from a re-analysis of the deposited data

Results flagged for a closer look

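Of 52 groups of 5 values examined (FPKM of the members, ratios between members and summed markers in E and in NE), 11 held a tumor whose gap to the nearest other tumor took up most of the range of its group (Dixon's limit), where chance flags about 1 in 20 groups, or 2.6 of 52. These groups share tumors and genes and are not independent. Among the members, E5 stood far above its group for Il1a (3.57 FPKM) and Nfkbia (81.1 FPKM), and with them for the ratio of Nfkbia to Rela (2.94), and NE4 stood below its group for Nfkb1 (15.8 FPKM). NE1 stood below its group for the ratio of Rel to Rela (0.0789). Among the markers, E5 was far above the other E tumors for neutrophils (289 CPM), fibroblasts (16240 CPM) and endothelium (254.7 CPM). For skeletal muscle, E2 (4235 CPM) stood above E and NE4 (30354 CPM) above NE, and for keratinocytes NE5 (147 CPM) stood above NE. The highest genes of the marker lists, with mean FPKM in E and NE, were C1qb (308 and 273) for macrophages or monocytes, S100a9 (41.7 and 5.13) for neutrophils, Cd8b1 (10.1 and 9.65) for T cells, Cd79b (1.14 and 1.19) for B cells, Fscn1 (76.3 and 72.9) for dendritic cells, Col3a1 (307 and 162) for fibroblasts, Pecam1 (12.1 and 11.5) for endothelium, Krt19 (6.23 and 9.60) for carcinoma epithelium, Krt14 (0.0992 and 6.21) for keratinocytes and Acta1 (274 and 915) for skeletal muscle. The part of these cells in the levels of the members was not tested.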

How the results depend on the processing

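No gene was called (fold of 2 or more and FDR up to 0.05) under any alternative run (0 throughout), and 56 genes had a fold of 2 or more with an unadjusted p up to 0.05. An unadjusted p up to 0.05 was seen for 657 genes by edgeR's quasi-likelihood test, 352 by its exact test, 800 by DESeq2, 1800 by limma-voom and 644 by limma-trend. Members at that p, 0 in the reported fit, were 1 with DESeq2 (Nfkb1), 1 without TMM (Nfkbia), 1 with the skeletal muscle score as a covariate (Nfkbiz), 2 with the replicate block (Nfkbia, unadjusted p = 0.0274, and Nfkbiz, unadjusted p = 0.0289) and 0 to 2 when a tumor was left out. Same-numbered tumors of E and NE did not deviate together (r of -0.32 to 0.32), so the numbers were not taken as pairs. The direction changed for Il1a with the total count as a covariate (-0.52, against 0.95) and for Rel with limma-voom (-0.016) and with the total count (-0.15). DESeq2 gave no p for Il1a. Leaving out a tumor gave log2 fold changes of -0.10 to 1.18 for Il1a and -0.063 to 0.15 for Rel, and no other member changed direction in that fit. The differences of mean log2(FPKM + 1) ran from -0.029 to 0.41 for Il1a, -0.067 to 0.024 for Nfkb2 and -0.032 to 0.17 for Rel, and those with an unadjusted exact permutation p under 0.05 lost it in 5 of 10 such fits each (Nfkbia, Nfkb1). The number of correlated member pairs was 0 to 1. The list medians were taken without TMM, with DESeq2, with the replicate block and with each tumor left out, but not with the covariates. In these settings the median of the 10 members ranged from 0.069 (without E5) to 0.22. Those of the inducers ranged from 0.016 to 0.77, of neutrophil markers from -0.18 to 1.89 and of epithelial markers from -0.48 to -0.14. The medians of keratinocyte markers ranged from -0.96 to 0.39 and of skeletal muscle markers from -3.45 to 1.04 (0.77 with the replicate block, against -2.37). The cause of these changes was not tested, but Il1a and the inducers changed by leaving out E5 and skeletal muscle by leaving out NE4. The other 572 values moved within the replicate spread or kept their direction and side of the threshold. The 95% intervals given with the members bound the differences that 5 tumors per group allow.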
